A study of Mus musculus with 10 samples.

Results

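Plexins are the transmembrane receptors of semaphorins, and neuropilins are co-receptors that hold secreted class 3 semaphorins against type A plexins. The genes described here are the 8 plexins Plxna1, Plxna2, Plxna3, Plxna4, Plxnb1, Plxnb2, Plxnc1 and Plxnd1 and the 2 neuropilins Nrp1 and Nrp2. They were chosen by name, and the RefSeq row with the highest mean over all libraries stood for each symbol. All 10 had a row, out of 23553 genes in the files. A ninth mouse plexin gene, Plxnb3, is not among them; it stayed at or below 0.0294 RPKM in every library.

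When a semaphorin binds, the cytoplasmic part of a plexin acts on small GTPases and the cytoskeleton behind it is taken down, which is how a growth cone turns away from a repellent cue. In sympathetic neurons and neuroblasts, the lineage neuroblastoma comes from, semaphorin signalling is known for steering axons and migrating cells. Neuropilins lack an enzymatic domain and also bind vascular endothelial growth factors. As further background, Plxna4, Plxnc1, Nrp1 and Nrp2 are spread over far more genomic sequence, mostly intron, than Plxna1, Plxna3, Plxnb1, Plxnb2 and Plxnd1. The series title asks about long neuronal genes, but no gene span was measured here.

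RNA came from Neuro-2a, a mouse neuroblastoma line, here labelled with the strain C57BL/6+C57BL/6J+CBA and a differentiated condition. Cells received a Stealth siRNA against Sfpq, a nuclear protein that binds RNA and DNA, or an siRNA against luciferase (Luc), which mouse cells lack; both groups were transfected with RNAiMAX in D-MEM with 2% FCS, glutamine, penicillin and streptomycin, and the labels give no time after transfection. There were 3 Sfpq and 3 Luc libraries of poly(A)-selected RNA, sequenced on an Ion Proton, and 1 Sfpq and 1 Luc library of RNA freed of ribosomal RNA. All groups are 1 cell line. The labels do not say whether replicates were grown apart, so the p-values may reflect technical spread alone. RNA polymerase II immunoprecipitation, also listed, is not analysed here.

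Levels are given in RPKM, read numbers scaled to transcript length and library size. Genes are compared with each other within a preparation only, since some had unlike levels in the other preparation. How many reads lie behind the values is unknown. From the spacing of low values, the poly(A) libraries were 0.628 to 1.17 times (Sfpq) and 1 to 1.28 times (Luc) as deep as Luc replicate 1, and the rRNA-depleted libraries 2.65 (Sfpq) and 2.64 (Luc) times. Luc replicate 3 stood apart from its group: across genes, the correlation of log2(RPKM + 0.5) was 0.9846 with Luc replicate 1 and 0.9786 with Luc replicate 2, beside 0.9958 between replicates 1 and 2. Sfpq RNA was 3.98, 4.75 and 6.47 RPKM in the Sfpq libraries, against 56.8, 60.8 and 73.0 RPKM in the Luc libraries, a log2 fold change of -3.54 (SE 0.17, limma adjusted p = 1.56e-06). The rRNA-depleted libraries had 4.43 RPKM with Sfpq siRNA and 30.8 RPKM with Luc siRNA. Of 14 neuroblastoma markers, 13 were at 1 RPKM or more in all 8 libraries. In poly(A) RNA, 3 rose, 7 fell and 4 did not pass, while 40.0% of all genes tested were called. The summed level of these markers was 958 to 1025 RPKM in Sfpq and 1024 to 1204 RPKM in Luc poly(A) libraries. The part of this shift in the results was not tested. Markers of other cells were low: the summed level of 6 endothelial markers was 2.26 to 2.82 RPKM in Sfpq and 2.67 to 3.16 RPKM in Luc poly(A) libraries, that of 7 glial markers 1.44 to 1.77 and 1.54 to 1.69 RPKM, that of 6 fibroblast markers 0.793 to 1.23 and 0.839 to 1.11 RPKM, and that of 5 immune markers did not pass 0.0943 RPKM in any library. Tie1 and Emcn (endothelial) and Mag (glial) were listed at 0 throughout. The other endothelial markers did not move together. Pecam1 was at 0.577 to 0.766 RPKM in Sfpq and 1.30 to 1.52 RPKM in Luc poly(A) libraries. Cdh5 was at 0.0622 to 0.132 RPKM in Sfpq and 0.137 to 0.166 RPKM in Luc libraries. Tek was at 0.240 to 0.643 RPKM in Sfpq and 0.174 to 0.320 RPKM in Luc libraries. Esam was at 0.993 to 1.34 and 0.891 to 1.37 RPKM, and the ranges of Tek and Esam overlapped.

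With Sfpq siRNA, 4 of the 9 tested receptor genes rose in poly(A) RNA, 2 fell and 3 did not pass the test (limma on log2(RPKM + 0.5) over the 11727 genes averaging 0.5 RPKM or more, adjusted p under 0.05). Plxnb1, Plxna1, Plxnd1 and Plxnb2 rose, and Plxna4 and Plxnc1 fell. Nrp2 did not pass by the row that stands for it, but 4 of its 6 rows were called lower in a fit over all rows. Over all genes tested, 40.0% were called, 21.3% as higher and 18.6% as lower, so a call in itself was common in this comparison. The tested receptors had a median log2 fold change of 0.16, beside 0.05 for all genes tested. The groups of libraries did not overlap for 7 of the 9, while 52.9% of all genes tested showed no overlap.

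**Figure D1:**
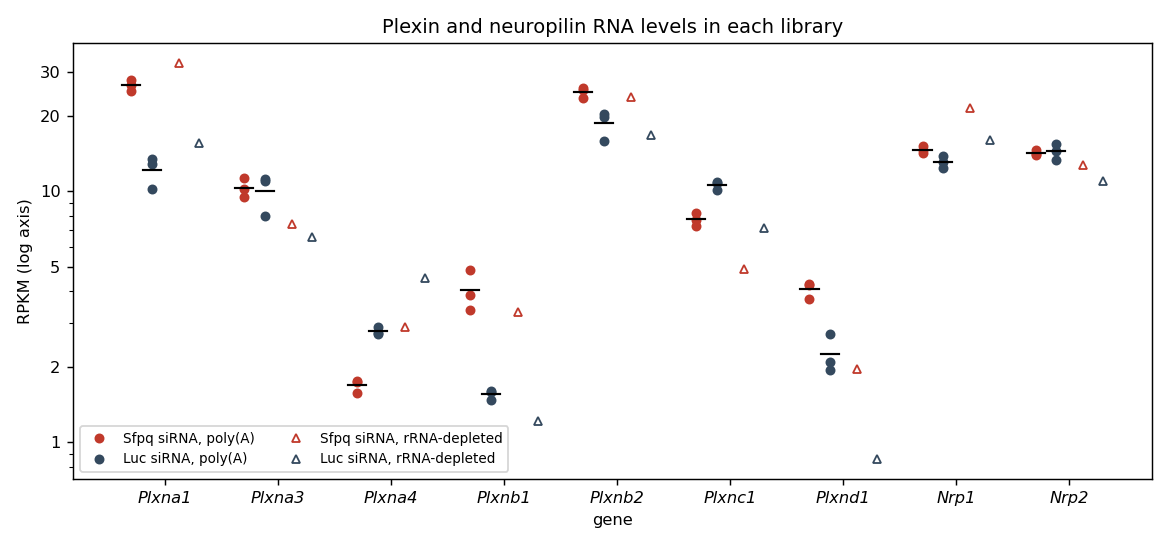
RPKM (log axis) of 9 receptor genes, with poly(A) libraries as filled circles (3 Sfpq in red, left of 3 Luc in dark blue, bars at the means) and the rRNA-depleted libraries as open triangles (1 Sfpq, left of 1 Luc). Plxna1 lay between 25.2 and 27.9 RPKM in Sfpq and between 10.2 and 13.4 RPKM in Luc poly(A) libraries, while the circles of Plxna3 and Nrp2 overlap.

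Among type A plexins, which pair with neuropilins to receive class 3 semaphorins, Plxna1 and Plxna4 changed in opposite directions. Plxna1, a receptor for Sema3A with Nrp1 and also for Sema6D, was at 25.2, 27.9 and 26.4 RPKM in the Sfpq libraries, against 12.9, 13.4 and 10.2 RPKM in the Luc libraries. Every Sfpq library stood near the same high level, and Luc replicate 3 was the lowest of the 6. Plxna1 rose 2.14-fold on the log2(RPKM + 0.5) scale (log2 fold change 1.10, SE 0.12, limma adjusted p = 0.000149).

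Plxna4, which in mouse sympathetic and sensory axons acts with Nrp1 for Sema3A, was much less abundant. It had 1.58, 1.74 and 1.75 RPKM in Sfpq libraries, against 2.70, 2.89 and 2.73 RPKM in Luc libraries. The groups did not overlap and each was tight. Plxna4 fell by 0.58 on the log2 scale (SE 0.11, limma adjusted p = 0.00303).

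Plxna3, known for carrying Sema3F signals with Nrp2, was at 9.48, 10.3 and 11.3 RPKM in Sfpq libraries, against 11.0, 11.2 and 8.001 RPKM in Luc libraries. The groups overlapped, with Luc replicate 3 below all others. Its log2 fold change of 0.05 did not pass the limma test (95% interval -0.28 to 0.37, adjusted p = 0.808), and the sign turned without Luc replicate 3 (-0.10) or Sfpq replicate 3 (-0.01). Plxna2, a receptor for class 6 semaphorins, was listed at 0 in all 3 Sfpq libraries and in Luc replicates 2 and 3, and at 0.00374 RPKM in Luc replicate 1. In rRNA-depleted RNA it was at 0.00141 (Sfpq) and 0.00284 (Luc) RPKM, so it was near 0 in every library and was not tested.

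Both type B plexins among these genes rose. Plxnb1, the receptor of Sema4D, which couples to RhoA through the exchange factors Arhgef11 and Arhgef12, had 3.37, 3.88 and 4.87 RPKM in Sfpq libraries, against 1.59, 1.61 and 1.48 RPKM in Luc libraries. The Sfpq libraries were spread more widely than the Luc libraries, with replicate 3 highest, but all lay above them. Plxnb1 had the largest log2 fold change of the 9 genes (1.13, SE 0.14, limma adjusted p = 0.000278), although its interval (0.81 to 1.44) overlaps that of Plxna1 (0.82 to 1.38). On the plain RPKM scale the ratio of means was 2.59, since the added 0.5 understates the change of a low gene.

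Plxnb2, a receptor of Sema4C in the developing nervous system, was the most abundant plexin of Luc cells. It was at 25.4, 25.8 and 23.5 RPKM in Sfpq libraries, against 19.9, 20.3 and 15.9 RPKM in Luc libraries. No Sfpq library reached down to the Luc range. Plxnb2 rose by 0.41 log2 units (SE 0.12, limma adjusted p = 0.0207), a 1.33-fold change. The call did not hold when Sfpq replicate 1 (limma adjusted p = 0.0645), 2 (0.0871) or 3 (0.0503) was left out, or with no filter on low values (0.0756); over all alternatives the adjusted p lay between 0.00946 and 0.0871.

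The single-member types moved apart. Plxnd1, which binds Sema3E without a neuropilin and is best known from blood vessels, had 3.73, 4.27 and 4.24 RPKM in Sfpq libraries, against 2.09, 2.69 and 1.94 RPKM in Luc libraries, and rose 1.68-fold (log2 fold change 0.75, SE 0.14, limma adjusted p = 0.00224). Plxnc1, the receptor of the membrane-anchored Sema7A, had 7.27, 8.19 and 7.72 RPKM in Sfpq libraries, against 10.8, 10.1 and 10.9 RPKM in Luc libraries. All 3 Sfpq values lay under all 3 Luc values, and Plxnc1 fell by 0.43 on the log2 scale (SE 0.10, limma adjusted p = 0.00895).

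**Figure D2:**
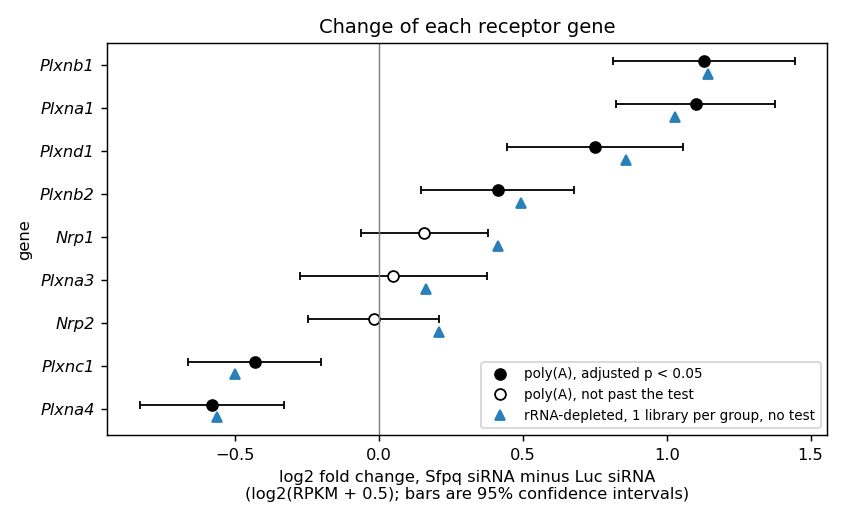
Log2 fold change, Sfpq minus Luc, of 9 receptor genes: circles with 95% intervals for poly(A) RNA (filled where the limma adjusted p was under 0.05) and triangles for the untested rRNA-depleted ratio. Plxnb1 (1.13) and Plxna1 (1.10) are at the top, Plxna4 (-0.58) at the bottom, and the open circles of Nrp1, Plxna3 and Nrp2 have intervals across 0.

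The promoters of 3 members that have a single window in the RefSeq table (build GRCm38.p6, which is not the build of the deposited files) are shown because these genes changed in opposite directions: Plxnb1 and Plxnd1 rose and Plxnc1 fell. Each window runs from 250 bases before to 50 after the start, 5′ to 3′ on the gene's strand, with capitals marking GC boxes (GGGCGG on either strand, written GGGCGG or CCGCCC; neighbouring matches may overlap).
Plxnb1, chr9:109095186-109095485, plus strand: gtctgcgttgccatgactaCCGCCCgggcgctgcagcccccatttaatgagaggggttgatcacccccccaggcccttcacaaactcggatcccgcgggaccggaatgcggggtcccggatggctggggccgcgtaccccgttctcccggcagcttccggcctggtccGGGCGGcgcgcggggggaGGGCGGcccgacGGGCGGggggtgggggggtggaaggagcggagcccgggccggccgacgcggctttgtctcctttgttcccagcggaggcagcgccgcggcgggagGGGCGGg
Plxnd1, chr6:115994956-115995255, minus strand: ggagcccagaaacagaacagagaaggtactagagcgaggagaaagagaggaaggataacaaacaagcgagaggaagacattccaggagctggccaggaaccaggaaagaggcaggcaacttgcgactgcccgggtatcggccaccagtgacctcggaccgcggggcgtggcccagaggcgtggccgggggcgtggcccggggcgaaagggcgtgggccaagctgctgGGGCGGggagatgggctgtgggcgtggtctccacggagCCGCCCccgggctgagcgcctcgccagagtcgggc
Plxnc1, chr10:94944796-94945095, minus strand: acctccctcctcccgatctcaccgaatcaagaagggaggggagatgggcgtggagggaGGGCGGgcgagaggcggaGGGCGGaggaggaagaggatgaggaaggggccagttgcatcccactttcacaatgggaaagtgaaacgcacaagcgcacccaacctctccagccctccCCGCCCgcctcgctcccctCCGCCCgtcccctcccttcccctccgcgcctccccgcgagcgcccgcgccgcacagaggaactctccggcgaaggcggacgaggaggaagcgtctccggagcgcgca
The script found 5 GC boxes in the Plxnb1 window, 2 in that of Plxnd1 and 4 in that of Plxnc1. At least 1 was found in all 9 windows the table gives for 8 of the members (Plxna1 and Plxna4 have none in it), and in 35.7% of all 32851 promoter windows of this length. None of the 9 windows held the letters CCAAT (37.4% of all windows) or TATAAA (13.6%), on either strand. G and C made up 74.7% (Plxnb1), 67.0% (Plxnd1) and 69.0% (Plxnc1) of the bases, beside a median of 52.7% over all windows. A match is a description of these letters and not a shown binding site.

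Summed over the 8 genes, plexin RNA was at 76.0, 82.0 and 79.9 RPKM in Sfpq libraries, against 60.9, 62.2 and 51.2 RPKM in Luc libraries, so every Sfpq library was above every Luc library; no test was made of this sum. Its makeup differed too. Plxna1 was 33.4% ± 0.512 of the plexin sum with Sfpq siRNA and 20.9% ± 0.880 with Luc siRNA (SD, n = 3 each). Plxnc1 was 9.74% ± 0.219 of it with Sfpq siRNA and 18.4% ± 2.64 with Luc siRNA, and Plxna4 2.13% ± 0.0595 and 4.81% ± 0.474 (SD, n = 3 each). Plxnb2 kept a near-equal place, at 31.4% ± 1.95 of the sum in Sfpq and 32.1% ± 0.868 in Luc libraries (SD, n = 3 each). In bulk RNA, fewer cells with a transcript and less of it per cell cannot be told apart.

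**Figure D3:**
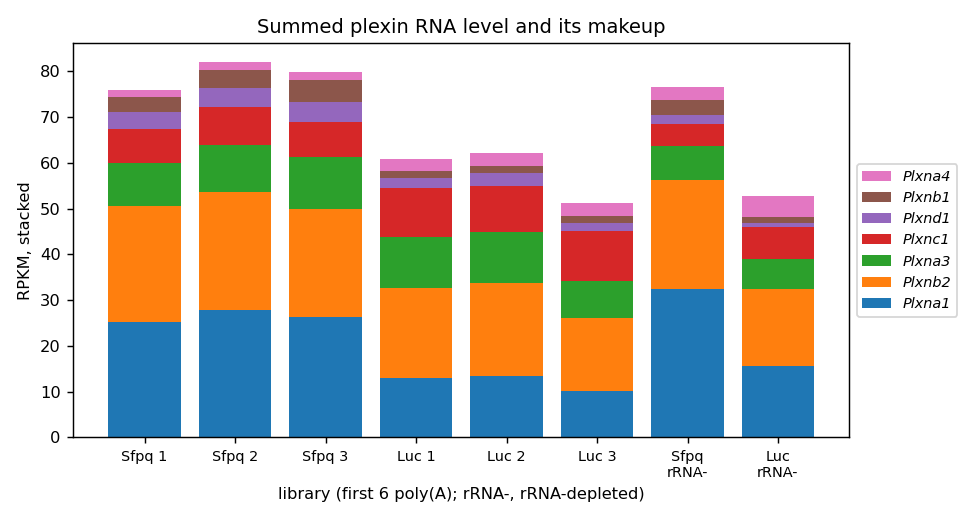
Stacked RPKM of 7 plexin genes in each library (Plxna2, near 0, is not drawn): 3 Sfpq and 3 Luc poly(A) libraries, then the rRNA-depleted Sfpq and Luc library. The total was 76.0 to 82.0 RPKM in Sfpq and 51.2 to 62.2 RPKM in Luc poly(A) libraries. Plxna1 (lowest band) took about the share of Plxnb2 in the Sfpq poly(A) libraries and a smaller one in the Luc poly(A) libraries. In the rRNA-depleted libraries Plxna1 was 42.3% (Sfpq) and 29.7% (Luc) of the sum, and Plxnb2 31.0% (Sfpq) and 31.8% (Luc).

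The order of the levels was therefore not the same in both groups. In Sfpq poly(A) libraries it ran, from high to low, Plxna1, Plxnb2, Nrp1, Nrp2, Plxna3, Plxnc1, Plxnd1, Plxnb1, Plxna4 and Plxna2. The library ranges of Plxna1 and Plxnb2, of Nrp1 and Nrp2, and of Plxnd1 and Plxnb1 overlapped, and the other neighbours were apart. In Luc poly(A) libraries the order was Plxnb2, Nrp2, Nrp1, Plxna1, Plxnc1, Plxna3, Plxna4, Plxnd1, Plxnb1 and Plxna2, and the ranges overlapped along the chain from Nrp2 to Plxna3. The place of Nrp2 rests on its row NM_001077407. Another Nrp2 row, NM_010939, was at 9.30 to 10.0 RPKM in Sfpq poly(A) libraries, below Nrp1 and overlapping Plxna3. In Luc poly(A) libraries NM_010939 was at 14.5 to 16.2 RPKM, above Nrp1 and overlapping Plxnb2. Plxna4 stood above Plxnd1 and Plxnb1 in Luc poly(A) libraries and below both in Sfpq poly(A) libraries. In rRNA-depleted RNA it was again above both with Luc siRNA. With Sfpq siRNA, Plxna4 (2.89 RPKM) was there below Plxnb1 (3.30 RPKM) but above Plxnd1 (1.96 RPKM).

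Neuropilin RNA summed to 28.5, 29.7 and 28.3 RPKM in Sfpq libraries, against 26.9, 28.5 and 27.2 RPKM in Luc libraries, with overlapping ranges. This sum depends on the row taken for Nrp2: with the mean of all its rows it was 25.3, 26.6 and 25.4 RPKM in Sfpq libraries, against 26.9, 29.0 and 28.4 RPKM in Luc libraries, and the ranges did not overlap. In rRNA-depleted RNA the sum over all rows was 31.2 RPKM with Sfpq siRNA and 27.9 RPKM with Luc siRNA. Nrp1, which binds Sema3A and VEGF-A, was at 14.6, 15.1 and 14.3 RPKM in Sfpq libraries, against 12.4, 13.1 and 13.8 RPKM in Luc libraries. All Sfpq values lay above all Luc values by a small margin, but the log2 fold change of 0.16 did not pass the limma test (95% interval -0.06 to 0.38, adjusted p = 0.230). The files hold 1 row for Nrp1.

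Nrp2, the neuropilin of Sema3F and VEGF-C, has 6 rows in the files, and they fell into 2 sets that behaved differently with Sfpq siRNA. The row that stands for the gene, NM_001077407, was at 13.9, 14.6 and 14.1 RPKM in Sfpq libraries, against 14.5, 15.4 and 13.4 RPKM in Luc libraries; its log2 fold change was -0.02, not past the threshold (limma adjusted p = 0.895). Row NM_001077406 had nearly the same values. The other 4 rows, NM_010939, NM_001077403, NM_001077404 and NM_001077405, were lower with Sfpq siRNA. NM_010939 had 9.30, 10.0 and 9.75 RPKM in Sfpq libraries, against 14.5, 16.2 and 15.2 RPKM in Luc libraries. Its Luc mean of 15.3 RPKM was above the 14.4 RPKM of NM_001077407. Choosing a row by its mean over all libraries thus disfavoured the rows that fell.

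In a limma fit over the 16793 RefSeq rows averaging 0.5 RPKM or more, of which 40.9% were called and 19.3% called lower, the log2 fold change of these 4 rows lay between -0.64 (NM_001077404, adjusted p = 0.000924) and -0.63 (NM_010939, adjusted p = 0.00103), with SE 0.10. Rows of a set differed from each other by at most 0.989% (the 4) and 3.19% (the 2) in any library. Rows with such near-equal values may rest on the same reads, which were not examined, so the 4 cannot be taken as 4 separate observations. Background from textbooks is that Nrp2 is made in A and B forms with different membrane-spanning and cytoplasmic ends. The sources used here do not say which row encodes which form.

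Within each library, the mean of the 4 rows divided by that of the 2 rows was 0.678, 0.696 and 0.703 with Sfpq siRNA, against 1.01, 1.06 and 1.15 with Luc siRNA. This ratio needs no scaling between libraries. On the log2 scale it differed by -0.63 (mean -0.53 ± 0.0271 in Sfpq and 0.10 ± 0.0917 in Luc libraries, SD, n = 3 each; two-sided exact permutation p = 0.1, the smallest that 3 against 3 libraries allow). Leaving out each library in turn gave -0.67 to -0.58. In rRNA-depleted RNA the ratio was 0.644 with Sfpq siRNA and 1.13 with Luc siRNA. The division into sets was chosen after the values were seen, so the permutation p adds no support of its own. Plxnb2, the other member with several rows, had 3 that differed by at most 1.51% and showed no such division.

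**Figure D4:**
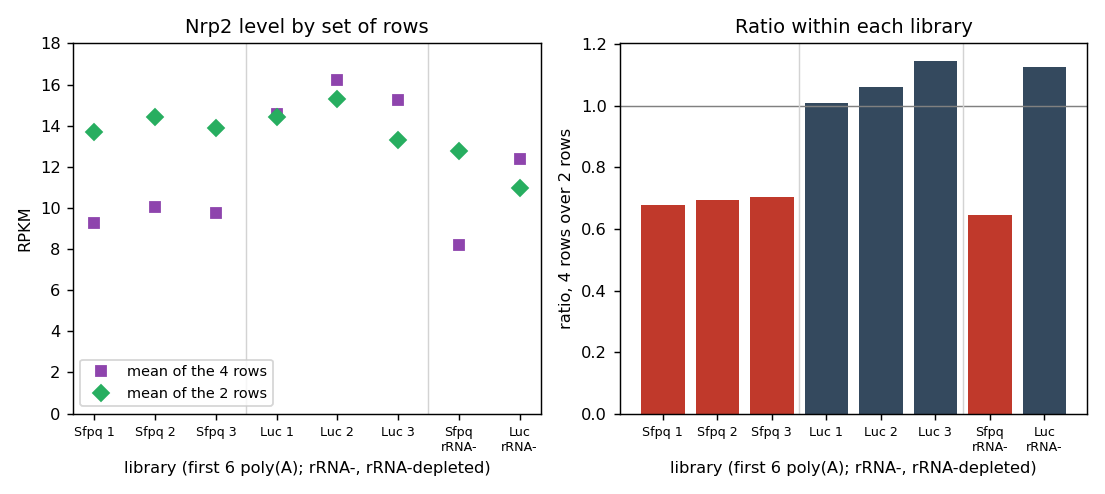
Left, mean RPKM of 4 Nrp2 rows (squares) and of the other 2 (diamonds) in each library; right, their ratio, with Sfpq bars in red and Luc bars in dark blue. The ratio was 0.678 to 0.703 in the 3 Sfpq poly(A) libraries and 1.01 to 1.15 in the 3 Luc ones, and the diamonds of the Sfpq and Luc poly(A) libraries overlap while the squares do not.

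In RNA depleted of ribosomal RNA, which also keeps transcripts without a poly(A) tail, the same genes were compared without replicates, so no test was possible. At least 1.5-fold on the log2(RPKM + 0.5) scale, 3 of 9 members were higher and 0 lower, while 7.86% of 11386 genes were higher and 13.3% lower by that much. Plxnb1 was at 3.30 RPKM with Sfpq siRNA and 1.22 RPKM with Luc siRNA (log2 ratio 1.14). Plxna1 was at 32.4 RPKM with Sfpq siRNA and 15.6 RPKM with Luc siRNA (1.03). Plxnd1 was at 1.96 RPKM with Sfpq siRNA and 0.860 RPKM with Luc siRNA (0.86).

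The smaller changes called in poly(A) RNA had the same sign in this preparation. Plxnb2 had 23.8 RPKM with Sfpq siRNA and 16.8 RPKM with Luc siRNA (log2 ratio 0.49), Plxna4 2.89 and 4.52 RPKM (-0.57), and Plxnc1 4.89 and 7.12 RPKM (-0.50). All 6 members called in poly(A) RNA thus had the same sign here, which was so for 99.1% of the 4474 genes called in poly(A) RNA and above the filter in both preparations. Nrp1 had 21.4 RPKM with Sfpq siRNA and 16.0 RPKM with Luc siRNA (0.41), and Plxna3 7.41 and 6.56 RPKM (0.16). For Nrp2 the row NM_001077407 had 12.8 RPKM with Sfpq siRNA and 11.0 RPKM with Luc siRNA (0.21), whereas NM_010939 had 8.23 and 12.4 RPKM (-0.56).

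For the member with the largest rise and the one with the largest fall, the tested genes with the most similar profiles over the 8 libraries were found by Euclidean distance of centred log2(RPKM + 0.5) values. Nearest to Plxnb1 were Lama5, a laminin chain (distance 0.249), the adhesion molecule gene Cntn2 (0.311) and the sodium/proton exchanger gene Slc9a8 (0.316). Nearest to Plxna4 were the chromatin remodelling subunit gene Arid1b (0.245) and Trim66 (0.254).

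Of the semaphorin ligands, many were not detected at a level that could be tested. Of 7 class 3 semaphorins, the secreted ligands of neuropilins, 2 were tested. Of these 1 rose and 1 did not pass, while 40.0% of all genes tested were called, 21.3% as higher. Sema3f, the ligand of Nrp2 with Plxna3, was at 2.71, 3.85 and 3.55 RPKM in Sfpq libraries, against 0.803, 0.994 and 0.811 RPKM in Luc libraries, and rose by 1.49 log2 units (SE 0.14, limma adjusted p = 6.80e-05). Sema3g did not pass. Sema3a was at most 0.0226 RPKM and Sema3e at most 0.0112 RPKM in any library, so the known ligands of Nrp1 with Plxna4 (Sema3A) and of Plxnd1 (Sema3E) were near 0. Without Luc replicate 3, 1 gene of this list was called lower, while 2645 of 11730 genes tested were lower in that fit.

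Of 13 semaphorins of classes 4 to 7, 9 were tested, of which 3 rose, 3 fell and 3 did not pass. Their median log2 fold change was 0.12, beside 0.05 for all genes tested, of which 40.0% were called. Sema4d, the ligand of Plxnb1, had 4.46, 4.43 and 5.04 RPKM in Sfpq libraries, against 11.0, 11.8 and 8.67 RPKM in Luc libraries, and fell by 1.09 on the log2 scale (limma adjusted p = 0.000264). Ligand and receptor thus moved in opposite directions here. Sema4c, a ligand of Plxnb2, had 15.0, 13.6 and 14.3 RPKM in Sfpq libraries, against 9.72, 9.81 and 6.76 RPKM in Luc libraries, and rose by 0.69 (limma adjusted p = 0.00517; 0.0542 with no filter on low values). Among transmembrane class 6 semaphorins Sema6c rose (0.95), and Sema6d (-0.51) and Sema6b (-0.50) fell; the low gene Sema4g rose (0.56). The Sema6b call ended with limma without Sfpq replicate 1 (adjusted p = 0.0677), Sfpq replicate 2 (0.0949) or Luc replicate 1 (0.0845), and with no filter on low values (0.0748).

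Vascular endothelial growth factors, the other ligands of neuropilins, were split as well. Of 8 ligands and receptors 5 were tested, 2 rose, 2 fell and 1 did not pass (median -0.22). Among all genes tested, 40.0% were called. Vegfa, a Nrp1 ligand, had 24.0, 23.3 and 28.5 RPKM in Sfpq libraries, against 44.2, 46.7 and 37.0 RPKM in Luc libraries, and fell by 0.74 on the log2 scale (limma adjusted p = 0.00150). Vegfb fell (-0.52), while Vegfd (0.78) and Pgf (0.62) rose. The receptors Flt1, Kdr and Flt4 were at most 0.0395 RPKM in any library.

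Of 12 membrane partners and relatives, 7 were tested, 2 rose, 2 fell and 3 did not pass (median -0.27). Calls made up 40.0% of all genes tested. L1cam, an adhesion molecule that joins Nrp1 in the response to Sema3A, had 27.6, 33.2 and 33.6 RPKM in Sfpq libraries, against 42.3, 44.4 and 40.4 RPKM in Luc libraries, and fell by 0.43 on the log2 scale (limma adjusted p = 0.0125). Nrcam, its relative that associates with Nrp2, fell (-0.97) at a low level, 0.395 ± 0.0759 RPKM in Sfpq and 1.27 ± 0.284 RPKM in Luc libraries (SD, n = 3 each). Cntn2 (1.07) and the neuropilin-like gene Dcbld1 (0.84) rose. The count of partners called lower was 4 without Luc replicate 3. In that fit 2645 of 11730 genes tested were lower, against 2185 of 11727 with all libraries.

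Among 21 tested GTPases and regulators next to plexins, 7 rose, 4 fell and 10 did not pass (median 0.08). Over all genes tested, 21.3% rose and 18.6% fell. Farp1, a guanine nucleotide exchange factor related to Farp2, was at 0.569, 0.743 and 0.569 RPKM in Sfpq libraries, against 10.1, 10.9 and 10.4 RPKM in Luc libraries, and fell by 3.28 on the log2 scale (limma adjusted p = 5.15e-07). Farp2, which activates Rac downstream of Plxna1 and Sema3A, fell by 0.51 (limma adjusted p = 0.0126; 0.0501 without Luc replicate 1). Rnd2, a GTPase of the family that binds the plexin cytoplasmic domain, was at 136.7, 130.2 and 134.0 RPKM in Sfpq libraries, against 62.3, 59.7 and 50.9 RPKM in Luc libraries, and rose by 1.21 (limma adjusted p = 3.35e-05).

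Sh3bp1, a Rac-inactivating protein that acts with Plxnd1, rose by 1.26. Rnd3 fell by 0.41, and the call was lost without Sfpq replicate 2 (limma adjusted p = 0.130), Sfpq replicate 3 (0.126) or Luc replicate 1 (0.0805), and with no filter (0.104). Rap1a, a target of the GTPase-activating domain of plexins, was called higher (0.73), but Luc replicate 3 (22.5 RPKM) lay among the Sfpq libraries (20.9, 24.1 and 23.2 RPKM) and far from Luc replicates 1 and 2 (10.3 and 10.4 RPKM). Its call ended without any 1 of the other 5 libraries (limma adjusted p = 0.101 to 0.149), with no filter on low values (0.275) and with an untrended prior (0.0521), and without Luc replicate 3 the fold change was 1.09. The count of lower genes in this list was 2 without Sfpq replicate 2 or 3 and 1 without Luc replicate 1. Over all genes tested, 1678, 1673 and 1744 were lower in these fits, against 2185 with all libraries.

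Of 21 tested cytoplasmic effectors of semaphorin signalling, 5 fell, 1 rose and 15 did not pass (median -0.02). The share called over all genes tested was 40.0%. The collapsin response mediator family genes Dpysl5 and Dpysl3 fell by 1.05 and 0.97 on the log2 scale. Dpysl3 was at 65.6, 71.3 and 64.0 RPKM in Sfpq libraries, against 135.8, 137.2 and 121.2 RPKM in Luc libraries (limma adjusted p = 8.87e-05). Fyn, a kinase that associates with type A plexins, had 7.48, 8.81 and 8.46 RPKM in Sfpq libraries, against 19.6, 19.4 and 21.4 RPKM in Luc libraries, and fell by 1.24 (limma adjusted p = 3.28e-05). The gene called higher was the Rac-dependent kinase gene Pak2 (0.35, limma adjusted p = 0.0353). Its call was lost without any 1 library other than Luc replicate 3 (limma adjusted p = 0.0501 to 0.143) and with no filter (0.0883). Without Luc replicate 3, 3 effectors were higher and 6 lower. Over all 11730 genes tested in that fit, 3621 were higher and 2645 lower, against 2502 and 2185 of 11727 with all libraries.

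**Figure D5:**
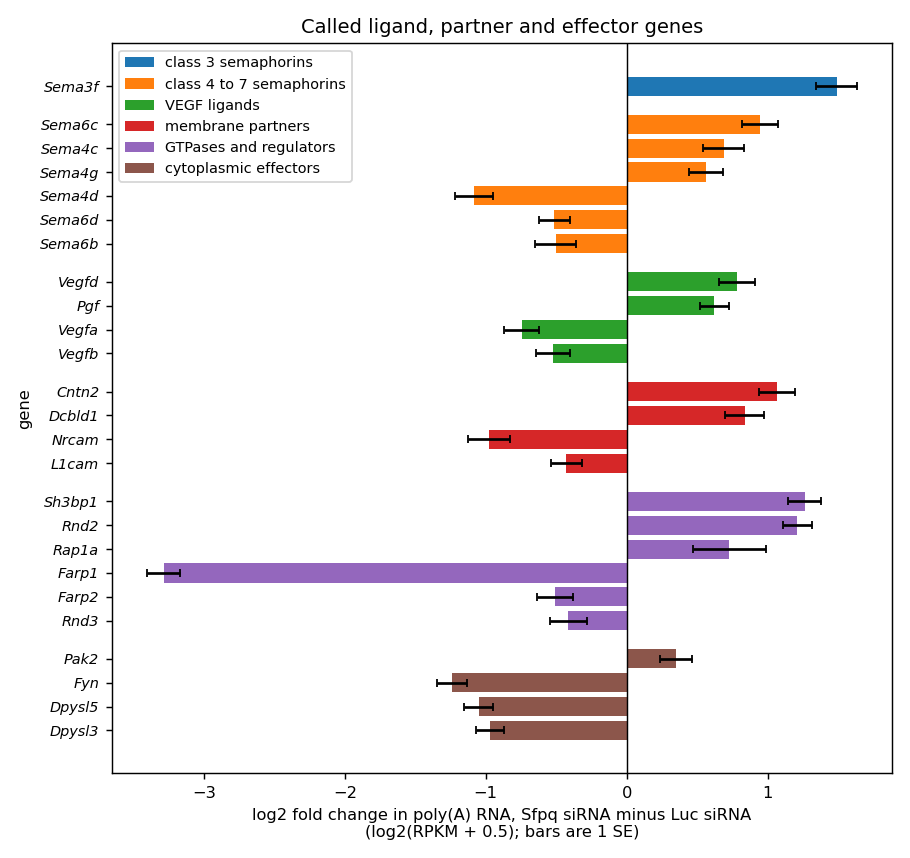
Log2 fold change in poly(A) RNA, Sfpq minus Luc, with 1 SE, of the called genes with the largest changes in each list: semaphorins, VEGF ligands, membrane partners, GTPases with their regulators, and cytoplasmic effectors. Farp1 (-3.28) is the longest bar, and every list with more than 1 gene drawn has bars on both sides of 0.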

How the data were processed

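Libraries were grouped, and replicate numbers taken, from the sample titles; the description of Sfpq replicate 2 gives another number than its title. The authors deposited RPKM values, listed by RefSeq transcript, per the file headers. Per the submitters' processing notes, TopHat2 2.0.10 and mm9 were used. How RPKM were computed, from which annotation release and strand, and what was done with reads of several matches is not given in the sources used here, and no read number allows a counting error.

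Of 30978 rows, 30507 (98.5%) were named through a RefSeq table of GRCm38.p6, used for names. Promoter windows came from a RefSeq table of that build; all 1913 pairs of overlapping windows on opposite strands were reverse complements of each other in the shared bases. For each symbol the row with the highest mean over 8 libraries was used. Relative depth was the commonest ratio between libraries of values from 0.001 to 0.05 RPKM; between 85.9% and 93.8% of them fell within 0.002 (natural log) of a quotient of integers no larger than 20.

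For poly(A) RNA, limma 3.58.1 (R 4.3.3, trended prior) was run on log2(RPKM + 0.5), with Benjamini-Hochberg adjustment over all genes averaging 0.5 RPKM or more. The fit was tested on simulated data. With 1 rRNA-depleted library per group, log2 ratios were described. Other steps used Python 3.11.15, numpy 2.4.6, pandas 2.3.3 and scipy 1.17.1.

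The members and lists were chosen with earlier results of these data known. Named were all members, Sfpq, the 3 largest called genes in each direction per list and the 3 nearest profiles, of which 1 is not reported here; other genes were named after their values were seen. Of the 85 genes written in the 6 pathway lists, all were in the files. Alternatives were pseudocounts of 0.1 and 1, no filter or a minimum of 2 RPKM, quantile normalization, median-ratio scaling, an untrended limma prior, the mean of all rows, a replicate block, a 2-fold limit for rRNA-depleted RNA and leaving out each library; leaving out libraries for the Nrp2 row ratio was added after seeing the data.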

Additional observations from a re-analysis of the deposited data

How the results depend on the processing

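Plxna1, Plxna4, Plxnb1, Plxnc1 and Plxnd1 kept their direction and their call in each of 15 alternatives. Over these, the log2 fold change of Plxna1 lay between 0.98 and 1.17, of Plxnb1 between 0.97 and 1.31, of Plxnd1 between 0.66 and 0.87, of Plxna4 between -0.68 and -0.49 and of Plxnc1 between -0.47 and -0.39. Plxnb2 stayed higher (0.30 to 0.47) but lost its call in 4 of them, named with its values. With the mean of all rows, Nrp2 was called lower (-0.41, limma adjusted p = 0.00888), as were 4 of its 6 rows, so 3 members were lower, and its rRNA-depleted log2 ratio was -0.28. Leaving out 1 library gave Plxna3 a log2 fold change of -0.10 to 0.13 and Nrp2 one of -0.071 (without Luc replicate 3) to 0.028 (without Luc replicate 2), none past the test; the cause was not tested. Over all genes, 1546 (without Sfpq replicate 2) to 3621 (without Luc replicate 3) were higher and 1673 to 2645 lower when 1 library was left out; the members then counted 3 to 4 higher and 2 lower. In the 6 pathway lists together, 16 genes were higher and 16 lower, while 40.0% of all genes tested were called. With a minimum of 2 RPKM, where fewer genes were tested, 10 genes of these lists were higher and 12 lower. Over all 9944 genes tested at that minimum, 2101 were higher and 1864 lower. In rRNA-depleted RNA, 1 member was at least 1.5-fold lower with a pseudocount of 0.1 (Plxna4, log2 ratio -0.63). Median-ratio scaling put the median of all genes at 0.01, beside 0.05, and turned no direction among the members.

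With the replicate number as a block, 4 members were higher and 2 lower, 2681 genes were higher and 2309 lower in all, and no member's call changed. Whether the numbers pair the libraries was not tested. Deviations of same-numbered libraries from their group means correlated at 0.33, -0.04 and 0.16, and those of differently numbered libraries at -0.28 to 0.17. Read depth limits Plxna2 and the untested ligands, whose absence is not shown.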

Other observations

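The preparations gave unlike levels for some of these genes. Sema3f averaged 3.37 ± 0.589 RPKM in Sfpq and 0.870 ± 0.108 RPKM in Luc poly(A) libraries (SD, n = 3 each) but was at 0.312 RPKM (Sfpq) and 0.0647 RPKM (Luc) in rRNA-depleted RNA. Dpysl5 averaged 3.18 ± 0.0945 RPKM in Sfpq and 7.12 ± 0.145 RPKM in Luc poly(A) libraries (SD, n = 3 each) and was at 0.586 RPKM (Sfpq) and 1.24 RPKM (Luc) in rRNA-depleted RNA. Plxna4 went the other way, with 1.69 ± 0.0977 RPKM in Sfpq and 2.78 ± 0.103 RPKM in Luc poly(A) libraries (SD, n = 3 each) and 2.89 RPKM (Sfpq) and 4.52 RPKM (Luc) in rRNA-depleted RNA. With 1 rRNA-depleted library per group, preparation and library cannot be told apart.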
